A study of Mus musculus with 9 samples.

Results

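A group of 10 transcription factors that establish and keep the identity of pancreatic beta cells was followed in islets of mice lacking *Raptor* in beta cells (βRapKO) and of their wild-type littermates (WT). The factors were *Pdx1*, *Nkx6-1*, *Nkx2-2*, *Neurod1*, *Mafa*, *Pax6*, *Isl1*, *Foxa2*, *Mnx1* and *Rfx6*, and each probe set that the array annotation paired with exactly 1 of them was taken. This gave 15 probe sets of 8 factors, out of 34945 probe sets of 18193 genes. *Mafa* and *Rfx6* were not paired with a probe set by the annotation used here and were not analysed. Islet RNA was hybridised to 9 Affymetrix Mouse Genome 430 2.0 arrays, 4 of βRapKO and 5 of WT islets. βRapKO mice were *Raptor* flox/flox with a Cre transgene (RIP-Cre) expressed from a rat insulin promoter, and WT mice were *Raptor* flox/flox littermates without Cre, so that both groups carried the floxed alleles. All mice were 8-week-old males, recorded as C57BL/6 in the sample labels. The RIP-Cre parents were of mixed background. Each array held islet RNA pooled from 5 animals of 1 genotype. No group carried RIP-Cre alone, so effects of the transgene and of the deletion cannot be told apart. Values are log2 signals, and differences are βRapKO minus WT. A gene was called changed at an adjusted p under 0.05.

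These factors work as a network. *Pdx1*, *Nkx6-1*, *Mnx1* and *Isl1* encode homeodomain proteins, as do *Nkx2-2* and *Pax6*, whereas *Neurod1* encodes a basic helix-loop-helix factor and *Foxa2* a forkhead factor that opens chromatin. Among adult islet endocrine cells *Nkx6-1* and *Mnx1* are restricted to beta cells, and *Pdx1* is found in beta cells and part of the delta cells. *Neurod1*, *Nkx2-2*, *Pax6*, *Isl1* and *Foxa2* are shared by most islet endocrine cell types. Together they drive the insulin genes and the machinery of glucose sensing, and several of them repress the programmes of other islet cells. In RNA from whole islets, fewer beta cells and less RNA per beta cell cannot be told apart.

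The stretches around the start sites of the 3 factors that fell are shown because factors of this network bind the regulatory regions of one another in beta cells. Each runs from 250 bases before to 50 bases after the start site, from RefSeq on GRCm38.p6. Capitals mark E-boxes (CANNTG, bound by basic helix-loop-helix factors such as Neurod1 with its partners) and the MAF core TGCTGA, on either strand.
*Nkx6-1*, chr5:101664662-101664961, minus strand: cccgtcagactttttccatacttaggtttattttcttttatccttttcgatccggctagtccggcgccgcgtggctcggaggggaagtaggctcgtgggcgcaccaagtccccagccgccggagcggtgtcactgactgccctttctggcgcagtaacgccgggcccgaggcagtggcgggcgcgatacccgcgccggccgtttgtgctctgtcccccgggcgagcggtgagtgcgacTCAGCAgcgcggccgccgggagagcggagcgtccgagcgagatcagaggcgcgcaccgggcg
*Pdx1*, chr5:147269847-147270146, plus strand: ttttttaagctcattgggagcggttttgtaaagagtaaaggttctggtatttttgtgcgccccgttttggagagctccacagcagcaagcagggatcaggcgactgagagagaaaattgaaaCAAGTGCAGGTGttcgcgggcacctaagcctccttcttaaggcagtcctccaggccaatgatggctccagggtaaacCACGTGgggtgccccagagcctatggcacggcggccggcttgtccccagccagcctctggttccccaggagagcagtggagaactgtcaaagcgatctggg
*Neurod1*, chr2:79456587-79456886, minus strand: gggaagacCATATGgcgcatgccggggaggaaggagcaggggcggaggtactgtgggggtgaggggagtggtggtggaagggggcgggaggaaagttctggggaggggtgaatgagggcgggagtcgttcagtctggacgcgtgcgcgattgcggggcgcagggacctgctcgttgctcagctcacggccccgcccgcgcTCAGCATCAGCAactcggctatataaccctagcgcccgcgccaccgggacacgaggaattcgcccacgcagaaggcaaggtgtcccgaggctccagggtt
The *Pdx1* stretch held 3 E-boxes, of which CACGTG began 51 bases before the start site. That of *Neurod1* held 1 E-box, CATATG, and 2 adjoining MAF cores, and that of *Nkx6-1* held 1 MAF core 12 bases before the start site and 0 E-boxes. Of all 32851 stretches of this length in the RefSeq table, 72.3% held an E-box, 19.5% a MAF core, 7.15% CACGTG and 3.91% CATATG. Factors that were not called held such matches too. The stretch of *Nkx2-2* held 3 E-boxes, 1 of them CACGTG, that of *Mnx1* held 3 E-boxes, and 1 stretch of *Foxa2* held 1 MAF core. A match is a description of letters only.

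The arrays carried the islet hormone transcripts. *Ins2* averaged 14.10 in βRapKO and 14.15 in WT islets, and *Gcg*, *Sst* and *Ppy*, the other islet hormones, lay above 15 on every array. *Rptor*, the gene symbol of *Raptor*, read 8.59, 8.48, 9.21 and 8.73 in βRapKO islets, against 9.53, 9.59, 9.71, 9.22 and 9.30 in WT islets in its brightest probe set. These groups did not overlap, but the highest βRapKO array and the lowest WT array lay close together. The difference was -0.72 (limma adjusted p = 0.0410), past the threshold in 7 of 18 alternative settings. Its 2 dim probe sets differed by -0.41 and 0.65 and were not called, and where the probes lie relative to the deleted part is not known here. Of the 13644 genes that passed the brightness filter, 359 (2.63%) were lower and 501 (3.67%) higher in βRapKO islets, 6.30% in all. With each array centred on its median these counts were 260 and 214, so that rises made up 45.1% of the calls in place of 58.3%. Mean levels of markers of several other cell types differed between genotypes. The mean of 9 stromal markers ranged from 9.97 to 10.78 in βRapKO and from 8.38 to 9.59 in WT islets, with 6 of 9 called higher. Delta cell (3 of 4 markers tested, 12.77 to 13.17 against 12.38 to 12.70) and ductal means (3 of 6 tested, 8.09 to 8.69 against 6.73 to 7.92) were higher in all βRapKO arrays, as were endothelial means (6 markers, 9.80 to 10.15 against 9.46 to 9.75). Of these markers 1 of 3 was called for delta cells, 0 of 3 for ductal cells and 0 of 6 for endothelial cells. Acinar means overlapped and spread widely between pools (7 of 10 markers tested, 8.57 to 12.50 in βRapKO and 8.99 to 12.25 in WT islets). Alpha cell means overlapped as well (4 of 7 tested, 12.24 to 12.48 against 12.05 to 12.47). So did those of PP and epsilon cells and of macrophages and leukocytes. Schwann and glial means (3 of 5 tested) ranged from 7.04 to 7.43 in βRapKO and from 5.90 to 7.32 in WT islets, which also overlapped. Called higher were 1 of 7 acinar, 1 of 3 Schwann and glial and 1 of 6 macrophage and leukocyte markers. For alpha cells and for PP and epsilon cells 0 markers were called. The mean of 8 pan-endocrine granule genes ranged from 14.19 to 14.30 in βRapKO and from 14.21 to 14.30 in WT islets. None of the 52 tested markers was at 0 on any array. The part of cell composition in the results below was not tested.

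All 8 measured factors passed the brightness filter, and 3 of them fell in βRapKO islets. These were *Nkx6-1*, *Pdx1* and *Neurod1*, and none of the 8 was higher (0 also at an unadjusted p under 0.05). The share of all tested genes that fell was 2.63%. All 8 differences were negative, as were 43.8% of all genes, and the median was -0.19 for the factors and 0.04 for all genes. *Nkx6-1* and *Neurod1* were the 2 factors whose βRapKO arrays all lay below all WT arrays, a pattern found in 5.05% of all genes, and 0 factors showed the opposite pattern, found in 7.43% (12.5% in either direction). At a fold of 1.5 and an unadjusted limma p under 0.05, 2 of the 8 were lower (2.81% of all genes) and 0 higher (6.38%). The 3 genes that fell are named in the study's own account of these islets, so their direction is not independent evidence. Those restricted to beta cells, or nearly so, had a median of -0.62 (3 factors, 2 of which fell), and those shared with other endocrine cells had a median of -0.14 (5 factors, 1 of which fell). The difference between these medians was not tested.

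**Figure D1:**
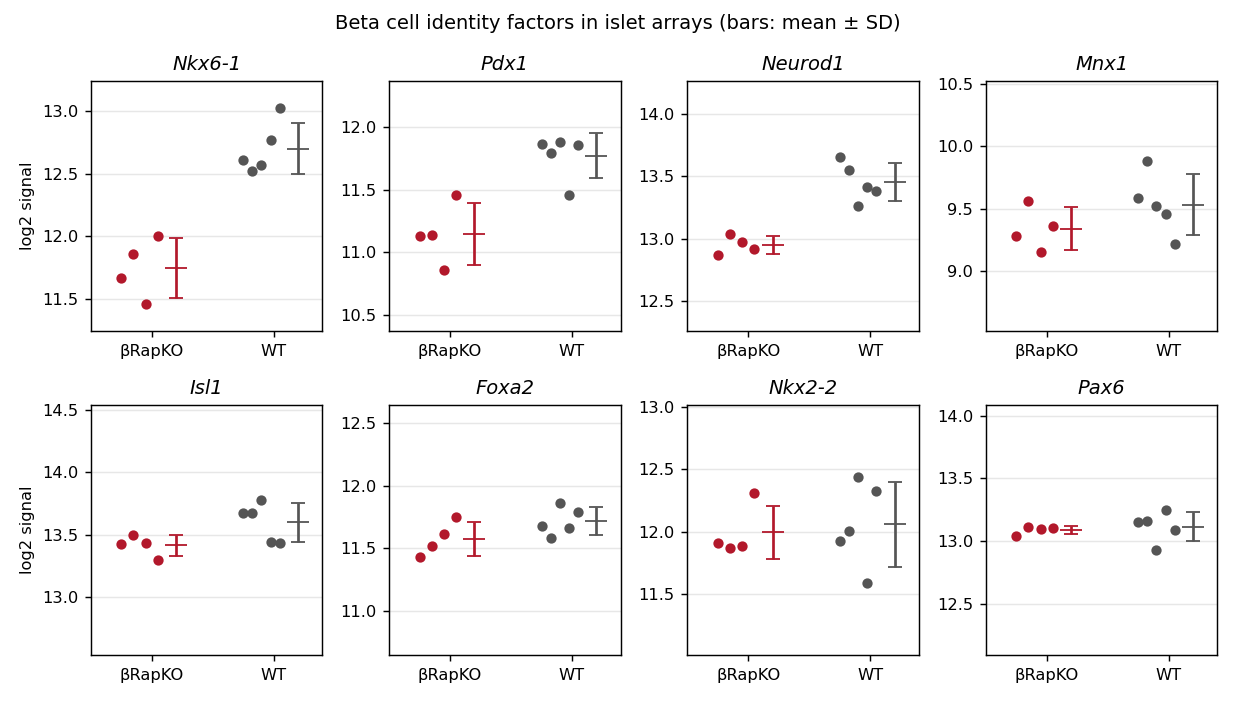
Log2 signal of the brightest probe set of 8 factors in each βRapKO (red, 4 arrays) and WT (grey, 5 arrays) islet array, with the group mean and SD as bars. Every panel spans 2 log2 units. The groups of *Nkx6-1* and *Neurod1* do not overlap, those of *Pdx1* meet at 11.46, and those of *Mnx1*, *Isl1*, *Foxa2*, *Nkx2-2* and *Pax6* overlap.

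*Nkx6-1*, which keeps beta cells from taking up other endocrine fates and is needed for insulin biosynthesis and glucose sensing, showed the largest fall of the 8. Its only probe set (1425828_at) read 11.67, 11.86, 11.46 and 12.01 in βRapKO islets, against 12.61, 12.53, 12.57, 12.77 and 13.03 in WT islets. The highest βRapKO array lay below the lowest WT array. The means were 11.75 ± 0.24 (SD, n = 4) in βRapKO and 12.70 ± 0.20 (SD, n = 5) in WT islets, which is -0.95 ± 0.14 (SE) on the log2 scale, or 1.94-fold lower (limma adjusted p = 0.00740). The call held in 17 of 18 alternative settings, including all 9 fits without 1 array. The exception was the fit with the replicate number as a block (limma adjusted p = 0.0599), although the numbers are not known to pair the arrays.

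*Pdx1*, the homeodomain factor that drives insulin and *Slc2a2* transcription and whose loss removes beta cell identity, fell 1.54-fold in its bright probe set. This probe set (1422174_at) read 11.13, 11.14, 10.86 and 11.46 in βRapKO islets, against 11.87, 11.79, 11.88, 11.46 and 11.86 in WT islets. The 2 groups met at a single point, since βRapKO replicate 4 and WT replicate 4 were both at 11.46. The difference was -0.62 ± 0.14 (SE, n = 4 and 5), with a limma adjusted p of 0.0357. It was lost in 12 of 18 alternative settings. Without βRapKO replicate 1, 2 or 3 or WT replicate 1, 2, 3 or 5 the limma adjusted p lay between 0.0632 and 0.0963, while without WT replicate 4 it was 0.0241 and without βRapKO replicate 4 it was 0.0285. The call was also lost without the brightness filter (limma adjusted p = 0.0699) and with each array centred on its median (0.0629). It was lost too with the unpaired test of the study's methods after Benjamini-Hochberg adjustment over all tested genes (adjusted p = 0.0534). Without that adjustment, at a fold of 1.5 and p under 0.05, the same test gave 2 factors lower, *Nkx6-1* and *Pdx1*. Of all 13644 tested genes it gave 333 lower and 761 higher by this rule. The study states these thresholds for its array scatter plot.

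The dim *Pdx1* probe set (1422173_at) gave less. It read 7.71, 8.31, 7.42 and 7.39 in βRapKO islets, against 8.27, 8.01, 7.71, 7.75 and 7.76 in WT islets, and these ranges overlapped. Its difference was -0.19 with a 95% confidence interval from -0.70 to 0.32 in the fit of all probe sets, an interval that also holds the value of the bright probe set. With the 2 *Pdx1* probe sets averaged the difference was -0.41 (limma adjusted p = 0.194).

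*Neurod1*, which activates the insulin genes and is needed for mature glucose-stimulated secretion, was lower in both of its probe sets. The brighter (1426413_at) read 12.87, 13.04, 12.98 and 12.92 in βRapKO islets, against 13.65, 13.55, 13.26, 13.41 and 13.38 in WT islets. The other (1426412_at) read 12.38, 12.34, 12.14 and 12.46 in βRapKO islets, against 12.70, 12.69, 12.84, 13.05 and 12.61 in WT islets. In neither probe set did the groups overlap, and the differences were close to each other. In the gene fit the brighter differed by -0.50 ± 0.10 (SE), or 1.42-fold (limma adjusted p = 0.0212). In the limma fit of all probe sets the other differed by -0.45 ± 0.13 (SE, unadjusted p = 0.00809, adjusted p = 0.183). It was not called there, and neither was the brighter (limma adjusted p = 0.102). The spread was small in βRapKO islets (SD 0.07 in the brighter probe set, n = 4) beside that in WT islets (SD 0.15, n = 5). The call held in 14 of 18 alternative settings and was lost without βRapKO replicate 1 (limma adjusted p = 0.0726), 3 (0.0594) or 4 (0.0580) and with the replicate block (0.110).

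The other 5 factors did not pass the test, and their intervals bound the size of a fall that could have gone unseen. *Isl1*, a LIM-homeodomain factor of endocrine cells and motor neurons, read 13.43, 13.50, 13.44 and 13.30 in βRapKO islets, against 13.67, 13.68, 13.78, 13.44 and 13.43 in WT islets. Its groups overlapped only through WT replicates 4 and 5, and the difference was -0.19 (95% confidence interval -0.41 to 0.04, limma adjusted p = 0.323). The dimmer *Isl1* probe set (1422720_at) differed by -0.17. *Mnx1*, whose loss in mouse beta cells turns them towards a delta cell fate, read 9.28, 9.56, 9.16 and 9.36 in βRapKO islets, against 9.59, 9.89, 9.52, 9.46 and 9.22 in WT islets, a difference of -0.19 (interval -0.51 to 0.13). *Foxa2*, a pioneer factor upstream of *Pdx1*, differed by -0.14 (interval -0.36 to 0.08), with 11.43 to 11.75 in βRapKO and 11.58 to 11.87 in WT islets. These intervals leave out a fall the size of that of *Nkx6-1* for each of the 3.

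*Pax6*, which activates hormone genes in all islet endocrine lineages, gave the narrowest interval. Its brightest probe set (1419271_at) read 13.04, 13.11, 13.09 and 13.10 in βRapKO islets, against 13.15, 13.16, 12.93, 13.25 and 13.09 in WT islets. The difference was -0.03 with a 95% confidence interval of -0.22 to 0.16 (limma adjusted p = 0.892). The WT spread (SD 0.12, n = 5) exceeded that in βRapKO islets (SD 0.03, n = 4), and the WT arrays enclosed all βRapKO values.

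*Nkx2-2*, which represses alpha and ghrelin cell genes in beta cells, had the largest standard error of the 8 (0.18). Its probe set read 11.91, 11.87, 11.88 and 12.31 in βRapKO islets, against 11.92, 12.01, 12.44, 11.59 and 12.33 in WT islets. The WT arrays enclosed all βRapKO values, and the difference of -0.06 had an interval of -0.48 to 0.35. Its sign depended on single arrays, being 0.03 without WT replicate 3 and 0.0035 without WT replicate 5.

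**Figure D2:**
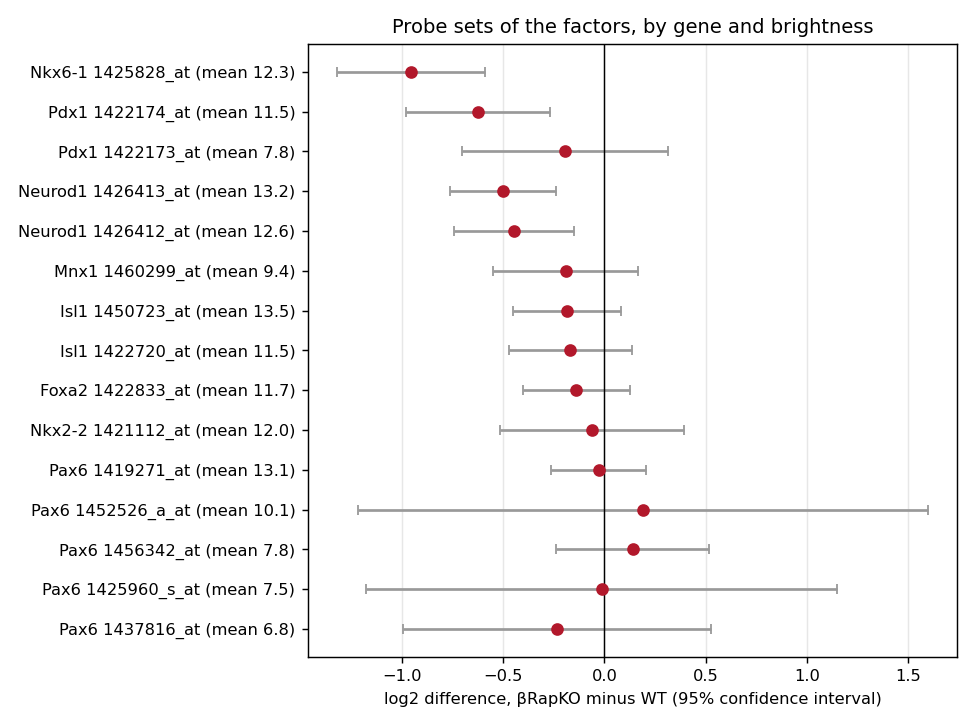
Log2 difference (βRapKO minus WT) of each of the 15 probe sets of the 8 factors, with 95% confidence intervals from limma over all 34945 probe sets and the mean log2 signal in parentheses. The intervals of the *Nkx6-1*, the brighter *Pdx1* and both *Neurod1* probe sets lie below 0, and the *Pax6* probe sets 1452526_a_at and 1425960_s_at have the widest intervals.

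Probe set by probe set, 13 of the 15 differences were negative, beside 47.1% of all 34945 probe sets. In 3 of the 15 all βRapKO arrays lay below all WT arrays, beside 3.27% of all probe sets. Adjusted over all 34945 probe sets, dim ones included, *Nkx6-1* alone was called (limma adjusted p = 0.0391). Of all probe sets 0.498% were called lower and 0.472% higher, or 0.970% in all. The brighter *Neurod1* and *Pdx1* probe sets had limma adjusted p of 0.102 and 0.127. With the dimmest 0.25 of probe sets left out 2 were called, *Nkx6-1* and the brighter *Neurod1* (limma adjusted p = 0.0495). The share of all probe sets called in this filtered fit was not counted, so this number has no background beside it.

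The 5 *Pax6* probe sets differed widely in precision. Those ending in _a_at and _s_at, which carry probes shared by several transcripts, varied most between arrays (SD 1.07 and 1.01 in βRapKO islets, against 0.93 and 0.63 in WT islets). Probe set 1452526_a_at read 9.78, 11.24, 10.82 and 8.86 in βRapKO islets, against 10.63, 10.65, 9.19, 10.70 and 8.77 in WT islets. Its difference of 0.19 had an interval of -1.22 to 1.60, and that of 1425960_s_at, -0.01, had an interval of -1.18 to 1.15. Both intervals are wide, and 1456342_at (0.14) and 1437816_at (-0.23) also stayed above the threshold.

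The order of the differences ran from *Nkx6-1* through *Pdx1*, *Neurod1*, *Mnx1*, *Isl1*, *Foxa2* and *Nkx2-2* to *Pax6*. To test whether 1 factor fell more than another, the difference between their log2 signals within each array was compared between genotypes for all 28 pairs, a test chosen after the values were seen. The differences of *Nkx6-1* and *Pax6* were -0.925 apart, and those of *Nkx6-1* and *Foxa2* -0.82 apart, without overlap of the groups (exact two-sided permutation p = 0.0159 each, the smallest possible with 4 and 5 arrays). In 8 of 28 pairs the groups did not overlap. These were *Nkx6-1* with *Mnx1*, *Isl1*, *Foxa2*, *Nkx2-2* and *Pax6*, *Pdx1* with *Foxa2* and *Nkx2-2*, and *Neurod1* with *Pax6*. After Benjamini-Hochberg adjustment over the 28 pairs these 8 stood at 0.0556 and 0 pairs passed. All 8 already had the smallest possible p, so a single pair could not have passed however large its difference. This count therefore does not show that the factors fell alike. Neighbours in the order differed by less, for instance *Pdx1* and *Neurod1* by -0.12 (exact permutation p = 0.492) and *Nkx6-1* and *Pdx1* by -0.33 (exact permutation p = 0.0317, adjusted p = 0.0889).

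Beta cell genes that these factors bind or drive were examined next. Of 15 listed genes 12 were tested, and 5 fell (2.63% of all genes) and 0 rose. The 5 were *Slc2a2*, *Ppp1r1a*, *Slc30a8*, *Pcx* and *Ucn3*, the median of the 12 was -0.51, and 11 differences were negative. The study itself reports lower *Slc2a2*, *Slc30a8*, *Pcx* and *Ucn3* in these islets, and the list was chosen with earlier results known. The count is therefore not independent evidence. *Slc2a2*, the glucose transporter GLUT2 and a target of *Pdx1*, read 13.29, 13.08, 13.23 and 13.42 in βRapKO islets, against 14.61, 14.69, 14.56, 14.46 and 14.63 in WT islets (2.52-fold lower, limma adjusted p = 0.000217). *Ppp1r1a*, a protein phosphatase inhibitor, read 11.39, 11.77, 11.49 and 11.62 in βRapKO islets, against 12.63, 12.73, 12.71, 12.68 and 12.79 in WT islets (2.21-fold lower, limma adjusted p = 0.000561). Each gene fell by more on the log2 scale than *Nkx6-1* (-1.33 and -1.14, against -0.95), and the calls of both held in all 18 settings. *Slc30a8*, the granule zinc transporter, fell 1.72-fold, *Pcx*, pyruvate carboxylase, 1.81-fold and *Ucn3*, the hormone urocortin 3, 1.80-fold. With the replicate block these 3 lost their calls (limma adjusted p between 0.0575 and 0.0708), leaving 2 of the 5.

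Unlike *Ucn3*, the hormone genes *Ins2* and *Iapp* downstream of the same factors did not pass the test, and *Ins1* was not tested. *Ins2* differed by -0.05 (95% confidence interval -0.38 to 0.28), and *Iapp*, the amyloid peptide of beta cell granules, by -0.12. *Iapp* averaged 15.23 in βRapKO and 15.35 in WT islets, near *Gcg* (15.20 and 15.30), *Sst* (15.17 and 15.21) and *Ppy* (15.29 and 15.43). Whether signals this bright still follow RNA amounts was not tested, so these differences describe the signal only. *G6pc2*, the islet glucose-6-phosphatase, was lower in all βRapKO arrays (14.79 to 14.90, against 15.07 to 15.14 in WT islets) by only 0.24 on the log2 scale (limma adjusted p = 0.0763). *Pcsk1* (-0.04), *Abcc8* (-0.01) and *Kcnj11* (0.27), which serve prohormone processing and the ATP-sensitive potassium channel, did not pass either. Nor did *Glp1r*, which differed by -0.84 with a wide 95% confidence interval of -2.27 to 0.59 (limma adjusted p = 0.497).

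**Figure D3:**
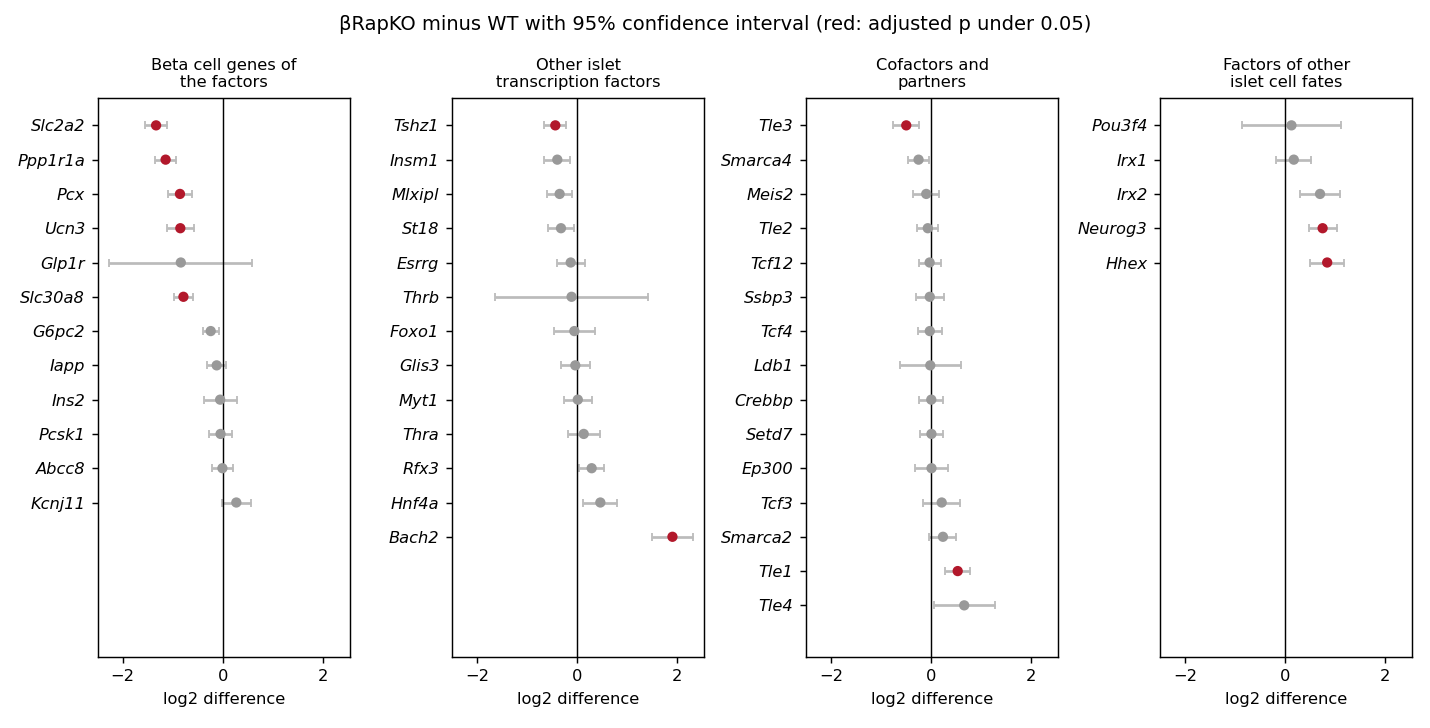
Log2 difference (βRapKO minus WT) with 95% confidence interval for the tested members of 4 lists, beta cell genes of the factors (12), other islet transcription factors (13), cofactors and partners (15) and factors of other islet cell fates (5). Red points had an adjusted p under 0.05, namely 5, 2, 2 and 2 genes.

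Among other transcription factors of islets, 1 of 13 tested was lower (2.63% of all genes) and 1 higher (3.67%). *Bach2*, a repressor best known from B lymphocytes, read 8.95, 8.99, 9.10 and 9.15 in βRapKO islets, against 6.70, 6.96, 7.07, 7.31 and 7.66 in WT islets. It rose 3.75-fold (log2 difference 1.91 ± 0.18 SE, limma adjusted p = 0.000862), a larger difference than that of any of the 8 factors. *Tshz1*, a zinc finger factor, fell 1.35-fold (limma adjusted p = 0.0357) and passed in 7 of 18 alternatives. *Insm1*, a zinc finger factor needed for endocrine differentiation, lay at 12.04 to 12.16 in βRapKO and at 12.22 to 12.70 in WT islets without overlap, but did not pass (limma adjusted p = 0.0794). *Mlxipl*, the glucose-responsive factor ChREBP, was likewise lower in every βRapKO array without passing (limma adjusted p = 0.107). In the other direction, *Hnf4a*, a nuclear receptor, differed by 0.47 (limma adjusted p = 0.104) and *Rfx3*, a relative of *Rfx6*, by 0.29 (0.157), with overlapping groups and without passing.

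Cofactors included the Groucho-type corepressors, which partner *Nkx6-1* and *Nkx2-2* in repression. *Tle1* read 10.91, 10.60, 10.77 and 11.11 in βRapKO islets, against 10.23, 10.28, 10.39, 10.35 and 10.34 in WT islets (1.44-fold higher, limma adjusted p = 0.0275). *Tle3* read 9.68, 9.57, 9.69 and 9.73 in βRapKO islets, against 10.03, 10.07, 10.16, 10.06 and 10.51 in WT islets (1.41-fold lower, limma adjusted p = 0.0375). In both the groups did not overlap, but the calls held in only 8 and 6 of 18 settings. The other Groucho-type members did not pass, with 0.66 for *Tle4* (limma adjusted p = 0.193) and -0.07 for *Tle2*. *Tle1* and *Tle3* were the 2 genes called among 15 tested cofactors (6.30% of all genes in either direction), whose median was -0.02. *Ldb1* (-0.02) and *Ssbp3* (-0.03), which bridge *Isl1* complexes, the helix-loop-helix partners *Tcf3* (0.21), *Tcf12* (-0.03) and *Tcf4* (-0.03), and *Setd7* (0.01), a methyltransferase recruited by *Pdx1*, did not pass.

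Factors of other islet fates were examined last. Of 8 listed factors 5 were tested, all 5 differences were positive with a median of 0.69, 2 rose (3.67% of all genes) and 0 fell. In 3 of them all βRapKO arrays lay above all WT arrays (7.43% of all genes). *Neurog3*, the trigger of endocrine differentiation, read 9.31, 9.38, 9.28 and 9.52 in βRapKO islets, against 8.44, 8.63, 8.56, 8.99 and 8.51 in WT islets (1.68-fold, limma adjusted p = 0.0105). The study itself reports a rise of *Neurog3* in these islets, so its direction is not independent evidence. *Hhex*, the delta cell factor, read 10.68, 9.98, 10.30 and 10.57 in βRapKO islets, against 9.38, 9.43, 9.52, 9.72 and 9.68 in WT islets (1.79-fold, limma adjusted p = 0.0155), and is itself the called delta cell marker given above. The call of *Neurog3* was lost with probe sets averaged (limma adjusted p = 0.356) and that of *Hhex* with median centring (0.0571), so that 1 gene was called in each of these settings, and both were lost with the replicate block (0 called). *Irx2* of alpha cells was higher in all βRapKO arrays (9.83 to 10.25, against 9.04 to 9.80 in WT islets) without passing (limma adjusted p = 0.0515), and *Irx1* and *Pou3f4* differed by 0.17 and 0.12. Of 5 tested paralogues of the factors, *Maf* was called (3.67% of all genes were higher), 2.05-fold higher from a dim level (7.16 in βRapKO and 6.12 in WT islets, limma adjusted p = 0.0296), with the threshold passed in 6 of 16 alternatives.

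Genes with array profiles nearest to those of the 3 fallen factors were listed by the root mean square distance over the 9 arrays, as a description. Those nearest to *Nkx6-1* were *Defb1* (0.12 log2 units), *Dhrs4* (0.14) and *Pgap6* (0.14). *Pdx1* was nearest to *Plekha4* (0.08), *Elovl5* (0.11) and *4930402H24Rik* (0.12), and *Neurod1* to *Chmp4c* (0.07), *Chic1* (0.07) and *Desi1* (0.07). The choice by nearest profile fixes their direction, and *Plekha4* did not pass the test (limma adjusted p = 0.0846).

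**Figure D4:**
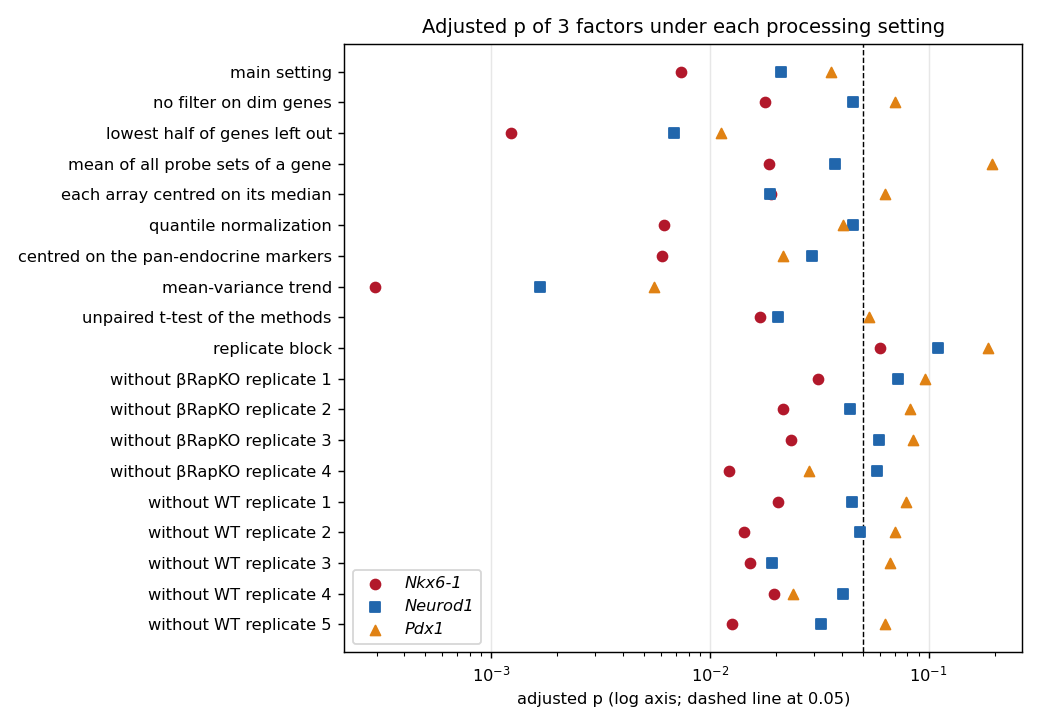
Adjusted p (log axis) of *Nkx6-1*, *Neurod1* and *Pdx1* in the main setting and 18 alternatives, with the threshold of 0.05 dashed. *Nkx6-1* stays below the threshold in 17 alternatives, *Neurod1* in 14 and *Pdx1* in 6.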

How the data were processed

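Islet RNA, pooled from 5 animals per array, was measured on Affymetrix Mouse Genome 430 2.0 arrays, 4 of βRapKO and 5 of WT islets. The authors deposited 1 log2 signal per probe set and array. Genespring is named for the analysis, while for summarisation and scaling no method is stated in the sources used here. The trimmed mean of the linear signal was between 497.1 and 497.7 on every array, and the values were used as deposited. Genes were named through the platform annotation from probe sets with 1 gene. A gene stood for its brightest probe set, and the dimmest 0.25 of genes was left out. Groups came from the sample titles. The comparison used lmFit and eBayes of limma 3.58.1 under R 4.3.3 (two-sided, Benjamini-Hochberg over all tested genes, threshold 0.05), and all 34945 probe sets were fitted likewise without a filter. Pairs of factors were compared by exact permutation over the 126 splits of the arrays.

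The factors and gene lists were chosen with earlier results of these data known. Named were *Rptor*, all factors, from each list its called genes (at most 5, smallest p first, or the smallest p alone where none was called), 6 fixed genes and the 3 nearest profiles of each called factor. *Insm1*, *Mlxipl*, *Hnf4a*, *Rfx3*, *Tle2*, *Tle4* and other members that did not pass were named after their values were seen. Alternatives covered the filter, the choice of probe set, normalization, variance model, test, replicate number and each array left out. In simulated data with 13644 genes on 4 and 5 arrays limma found 15 of 58 genes changed by 0.58, 46 of 71 changed by 1 and 70 of 71 changed by 2 on the log2 scale, with 9 false calls among 140. The number of arrays limits the precision. That replicates were separate pools is stated by the study, and p-values measure the spread between pools.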

Additional observations from a re-analysis of the deposited data

Results flagged for a closer look

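Among the 30 groups of values formed by 15 probe sets and 2 genotypes, 2 held a sample far from the others, where chance flags about 1 in 20. *Nkx2-2* in βRapKO replicate 4 read 12.31, while the other βRapKO arrays lay at 11.87 to 11.91. The brighter *Pdx1* probe set in WT replicate 4 read 11.46, while the other WT arrays lay at 11.79 to 11.88. Without WT replicate 4 the *Pdx1* difference was -0.70 (limma adjusted p = 0.0241).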

How the results depend on the processing

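Among the 8 factors, 3 fell in the main setting, and 2 or 3 did so with every other filter, probe set rule, normalization, variance model and test tried. With 1 array left out the count ranged from 1 to 3 (1 without βRapKO replicate 1 and 1 without βRapKO replicate 3, *Nkx6-1* in both). No factor was called higher in any setting. With the replicate number as a block 0 factors were called, as were 28 lower and 33 higher genes in all. The numbers share no stated origin, the deviations of same-numbered arrays correlated at -0.04, 0.09, 0.12 and -0.03, and 2 of 4 βRapKO arrays correlated best with the WT array of their number. Over all genes, 359 fell and 501 rose. Without the brightness filter 213 fell and 239 rose, with probe sets averaged 134 fell and 183 rose, and with median centring 214 rose. At a fold of 1.5 and an unadjusted p under 0.05, 870 rose. With 1 array left out 179 to 305 genes fell and 191 to 496 rose. With the dimmest 0.25 of probe sets left out 2 factor probe sets were called lower in place of 1, and the share over all probe sets was not counted. The unpaired test of the study's methods gave 2 of the 8 factors lower at a fold of 1.5 and an unadjusted p under 0.05, and 2 after Benjamini-Hochberg adjustment. Over all 13644 tested genes it gave 333 lower and 761 higher by the first rule, and 355 lower and 362 higher by the second. Wide spread between arrays limits the precision for the *Pax6* probe sets 1452526_a_at and 1425960_s_at.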

Other observations

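Some factors varied between pools in a way that genotype does not describe. βRapKO replicate 4 and WT replicates 3 and 5 held the highest values of their groups for *Foxa2* (11.75, 11.87 and 11.79) and *Nkx2-2* (12.31, 12.44 and 12.33). The same 3 arrays held the lowest values of their groups for the *Pax6* probe set 1452526_a_at (8.86, 9.19 and 8.77), and likewise for 1425960_s_at (6.59, 6.996 and 6.85). In the dim *Pax6* probe set 1437816_at they were the highest (7.51, 7.17 and 7.37). In the brightest *Pax6* probe set WT replicates 3 and 5 were again the lowest of their group (12.93 and 13.09), while βRapKO replicate 4 (13.10) lay within the range of its group. This pattern was noticed in the data and was not tested.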
